A study of Mus musculus with 4 samples.

Results

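The genes described here encode brakes on the PI3K and mTOR pathway, read from arrays of mouse CD4+ T cells. The set holds 8 genes, Pik3ip1, Pik3r1, Inpp4b, Inpp5d, Tsc1, Tsc2, Sesn1 and Sesn3, chosen by name for their known roles. All rows that carry one of these names in the scanner files were taken, which gave 15 of 56605 probes and 8 of 28271 named genes. Each probe was printed on 1 spot, and 14 of the 15 were well above local background on all 4 arrays. The exception was 1 of the 2 Tsc1 probes, which was not well above background on any array.

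RNA came from naive T cells and from cells cultured towards iTreg, each WT and Nr4a-TKO, and every one of these 4 groups had a single Cy3-labelled Agilent array. Naive T cells were CD4+ cells sorted as CD44low and Foxp3- from bone marrow chimeras in irradiated Rag2-/- recipients, on a C57BL/6J background and with mice 6 to 8 weeks old. Nr4a-TKO cells carried floxed Nr4a1 and Nr4a2 alleles and a deleted Nr4a3, the nuclear receptors that T cell receptor signals induce at once, together with the hCD2-hCD52 knock-in at Foxp3 that reports this gene for sorting, and the Cre line is not given in the sources used here. The Nr4a-TKO cells were the Ly5.2+ cells of chimeras that also held Ly5.1 WT marrow, whereas the WT cells came from chimeras of WT marrow alone, so genotype and source cannot be told apart. The iTreg arrays held cells kept for 3 h on plate-bound anti-CD3 (2 µg/ml) with anti-CD28 (0.5 µg/ml), IL-2 (10 ng/ml), TGF-β1 and antibodies against IFN-γ and IL-4, both genotypes alike. TGF-β1 is given as 0.2 or 0.5 ng/ml, without saying which was used for the arrays.

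PI3K makes the membrane lipid PIP3 after T cell receptor and CD28 engagement, PIP3 recruits Akt, and Akt releases mTORC1 by phosphorylating the TSC complex, while it holds FoxO factors out of the nucleus. The brakes act at successive points of this route. Pik3ip1 is a membrane protein that binds and inhibits the catalytic subunit, and Pik3r1 encodes the p85α family of regulatory subunits, which stabilise the catalytic subunit and hold it inactive until it is recruited. Inpp5d (SHIP1) removes the 5-phosphate of PIP3 and Inpp4b the 4-phosphate of the product, Tsc1 and Tsc2 form the complex that switches off Rheb, and the sestrins Sesn1 and Sesn3 bind GATOR2 and lower mTORC1 activity.

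The probes and promoters that carry the comparisons were as follows, each written from 5′ to 3′. Probe sequences are those of the scanner files, with coordinates on mm9, and no letter in them is marked. Probe A_52_P307938 is the only probe of Pik3r1, on chr13:102459406-102460448, a span of 1043 bases for a probe of 60 bases, so it crosses at least 1 intron. Probe A_66_P133966 is the Pik3ip1 probe whose values departed from those of the other probes of that gene, on chr11:3235803-3241553, and it spans 5751 bases. Probe A_52_P330289 of Inpp4b, on chr8:84565823-84565882, is one of the 3 probes of that gene, which were all higher on the Nr4a-TKO arrays.
Pik3r1 probe: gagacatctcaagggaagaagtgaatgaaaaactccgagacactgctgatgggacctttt
Pik3ip1 probe: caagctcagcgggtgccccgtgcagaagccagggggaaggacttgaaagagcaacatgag
Inpp4b probe: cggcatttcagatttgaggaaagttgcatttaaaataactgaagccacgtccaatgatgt

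Promoter windows of 250 bases before the annotated start were read from RefSeq on GRCm38.p6, with 1 window per gene and 2 for Pik3r1 and Sesn1, and all 8 genes matched. They were searched on both strands for AAGGTCA, the core of the Nr4a site, for AGGAAG, an Ets core, and for GTAAACA, a FoxO core. None of the 10 windows held AAGGTCA or GTAAACA, which occur in 4.08% and 3.17% of 32851 promoter windows of this length. AGGAAG occurred once each in the windows of Pik3ip1, Inpp4b and Inpp5d, and in 29.5% of all windows. A match is a description of letters only, and a window without one says nothing of the factor. The window of Pik3ip1, the gene with the lowest change by its brightest probe, is chr11:3330481-3330730 on the plus strand, with AGGAAG in capitals 145 bases before the start. That of Inpp4b, the gene highest in Nr4a-TKO at 3 h, is chr8:81342312-81342561 on the plus strand, with AGGAAG 102 bases before the start. That of Sesn3, which was lower at 3 h and has no match to the searched letters, is chr9:14276051-14276300 on the plus strand.
Pik3ip1 promoter: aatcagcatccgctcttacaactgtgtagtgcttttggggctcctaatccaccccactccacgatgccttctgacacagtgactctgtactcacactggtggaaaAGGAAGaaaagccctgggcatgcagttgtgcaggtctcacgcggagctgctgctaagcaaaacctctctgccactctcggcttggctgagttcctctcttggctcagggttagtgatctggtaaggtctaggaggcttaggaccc
Inpp4b promoter: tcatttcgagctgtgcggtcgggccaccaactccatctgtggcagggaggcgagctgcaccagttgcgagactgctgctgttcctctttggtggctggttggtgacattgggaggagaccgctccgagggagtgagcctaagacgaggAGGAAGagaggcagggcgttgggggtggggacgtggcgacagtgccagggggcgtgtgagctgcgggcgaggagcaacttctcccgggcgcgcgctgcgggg
Sesn3 promoter: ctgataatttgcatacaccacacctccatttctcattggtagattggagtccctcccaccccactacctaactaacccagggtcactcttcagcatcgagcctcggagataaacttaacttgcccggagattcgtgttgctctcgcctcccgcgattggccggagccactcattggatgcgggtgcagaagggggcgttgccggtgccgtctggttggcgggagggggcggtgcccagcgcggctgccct

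Values are log2 signals after background correction and quantile normalization over the 4 arrays, and a difference is a log2 difference between a pair of arrays. No condition had a second array, so no difference has a test or a replicate error. Probes printed on at least 5 spots gave an SD of 0.175 for a difference between arrays, rising to 0.327 for probes with a log2 level from 3 to 5, and this covers the spots alone and not mice or cultures. A difference was called where it passed 2-fold, and a gene was represented by its brightest probe. The 4 arrays had 64.9% to 67.6% of their probes well above background and no saturated spot. Probes of the targeted genes did not all follow the labels. At 3 h the signal of Nr4a1 was 11.33 under the WT label and 11.82 under the Nr4a-TKO label, both Nr4a2 probes were higher under the latter by 1.36 and 1.37, and the 3 Nr4a3 probes differed by -1.86, -1.47 and 0.18. Directions between genotypes therefore rest on the array labels. All 7 CD4 T cell markers and all 6 naive T markers were well above background on every array. So were all 5 B cell markers, with a summed log2 level of 9.77 and 9.92 on the naive arrays of WT and Nr4a-TKO and of 9.05 and 9.43 at 3 h. Of 5 myeloid markers 4 or 5 were well above background per array, with a summed level from 15.08 to 15.28. Most of this sum came from the Itgam probe (14.98 to 15.14). Csf1r lay between 11.15 and 11.75, Cst3 between 7.38 and 7.90 and Lyz2 between 3.79 and 4.27. Cd14 gave 6.66 and 3.97 on the naive arrays of WT and Nr4a-TKO and 3.77 and 4.58 at 3 h. The summed level of 5 early activation genes was 11.47 and 11.69 on the naive arrays of WT and Nr4a-TKO and 14.61 and 14.70 at 3 h. The 3 Treg markers were well above background on every array and did not move together between genotypes. In naive T and at 3 h, the log2 differences of Nr4a-TKO minus WT were -1.30 and -1.36 for Foxp3, -1.37 and 0.16 for Ikzf2 and 0.84 and 0.06 for Ctla4. The part of other cells in the results was not tested.

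In WT cells, 4 of the 8 genes were over 2-fold lower in iTreg at 3 h than in naive T, and none passed 2-fold upwards. These were Pik3ip1, Pik3r1, Sesn1 and Sesn3, with folds of 7.49, 4.18, 3.61 and 2.49. Among all 20331 genes compared, 8.84% were lower past 2-fold and 8.65% higher. The median over the 8 genes was -0.99, against -0.05 over all genes. The same 4 genes were more than 2-fold lower in Nr4a-TKO cells, by 7.52, 4.88, 4.11 and 3.61 fold, where 8.48% of 20762 genes were past 2-fold in that direction and 7.95% in the other, and the median over the 8 genes was -1.08 against -0.03 over all genes. Inpp4b, Inpp5d, Tsc1 and Tsc2 stayed within 2-fold in both genotypes. In these bulk samples, fewer cells of a type and less RNA per cell cannot be told apart.

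**Figure D1:**
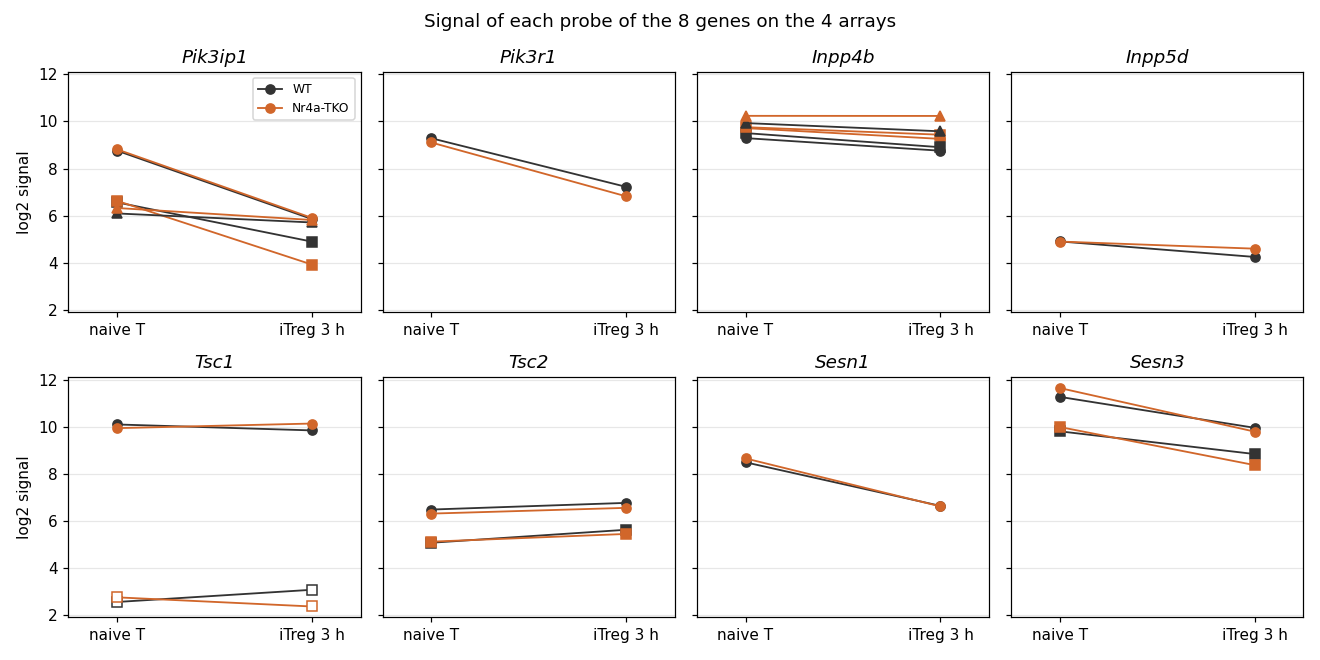
Log2 signal (vertical axis) of each probe on the arrays of naive T and iTreg at 3 h, with 1 panel per gene, WT in black and Nr4a-TKO in orange. Each symbol shape is 1 probe (circle, square and triangle in the order in which the text numbers the probes), each line joins the 2 stages of 1 genotype, and open symbols mark the Tsc1 probe that was not well above background. The lines of Pik3r1, Sesn1, Sesn3 and the first and second Pik3ip1 probes slope down most in both genotypes. Those of Inpp4b and the third Pik3ip1 probe slope down less or are nearly flat. The line of the brighter Tsc1 probe is nearly flat, and those of Tsc2 slope slightly upwards.

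By their brightest probes, the genes acting on PI3K itself had the lowest changes of the set. The first Pik3ip1 probe, A_51_P463428 on chr11:3242107-3242166, gave 8.76 in the naive cells of WT and 8.81 in those of Nr4a-TKO, and 5.86 and 5.90 in the respective iTreg cells. Both naive arrays were high and both 3 h arrays were low, and the genotypes were nearly level at each stage. The log2 changes were -2.90 in WT and -2.91 in Nr4a-TKO, at the 0.6 percentile of all genes in each genotype, and they differed from each other by -0.01. The second probe, A_52_P344152 on chr11:3233674-3233733, gave 6.56, 6.63, 4.90 and 3.92 in the same order, which makes changes of -1.67 in WT and -2.71 in Nr4a-TKO. This probe differed between the genotypes at 3 h by -0.97, whereas the first probe differed by 0.05, and its value of 3.92 lay close to the lowest signal well above background on that array, 3.07. The difference of the second probe at 3 h depended on the processing, with -1.52 after 75th percentile scaling and -0.29 with an offset of 50, where its changes with stage were -0.86 in WT and -1.19 in Nr4a-TKO. The third probe, A_66_P133966, whose sequence is given above, gave 6.09, 6.32, 5.71 and 5.82 and changed by -0.38 and -0.51. All 3 probes were thus lower at 3 h in both genotypes, but by unequal sizes. The mean over the probes was -1.65 in WT and -2.04 in Nr4a-TKO, at which Pik3ip1 no longer came below Sesn1 in WT.

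Pik3r1 had 1 probe, with 9.29 and 9.10 in the naive cells of WT and Nr4a-TKO and 7.22 and 6.82 in their iTreg cells. The naive arrays were again above the 3 h arrays, with log2 changes of -2.06 in WT and -2.29 in Nr4a-TKO. The Nr4a-TKO array was the lower at both stages, with differences of -0.18 in naive T and -0.40 at 3 h, the latter 1.32 fold. The change differed between the genotypes by -0.22. A single difference between repeated spots has an SD of 0.175, and a difference of changes, which joins more arrays, has a larger one.

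The sestrins were lower at 3 h as well. Sesn1, on chr10:41628000-41628059, gave 8.49 and 8.65 in WT and Nr4a-TKO naive cells and 6.64 and 6.61 in the matching iTreg cells. Its change was -1.85 in WT and -2.04 in Nr4a-TKO, and at 3 h the genotypes differed by -0.02. Sesn3 had 2 probes. The first, A_51_P127215 on chr9:14137354-14137413, gave 11.26, 11.64, 9.95 and 9.79 in that order. The second, A_51_P246773 on chr9:14130452-14130511, gave 9.80, 9.98, 8.84 and 8.37. Both were lower at 3 h, with changes of -1.31 and -0.96 in WT and of -1.85 and -1.62 in Nr4a-TKO, so the second passed 2-fold in Nr4a-TKO only and lay just short of it, at 1.95 fold, in WT. For both Sesn3 probes the Nr4a-TKO array was the higher in naive T, by 0.37 and 0.18, and the lower at 3 h, with -0.16 and -0.47. The change in Nr4a-TKO minus that in WT was -0.54 and -0.65, the same sign in both probes, and no replicate was available to test it.

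The lipid phosphatases and the TSC complex moved less. Inpp4b had 3 probes. The third, A_55_P2016792 on chr8:84646383-84646442 and the brightest, gave 9.93 and 10.24 in WT and Nr4a-TKO naive cells and 9.58 and 10.23 in the matching iTreg cells. The second, A_52_P330289, gave 9.50, 9.75, 8.90 and 9.43, and the first, A_51_P225933 on chr8:84648684-84648743, gave 9.29, 9.71, 8.76 and 9.26. The Nr4a-TKO array was above the WT array for all 3 probes at both stages. The differences were between 0.25 and 0.42 in naive T and between 0.50 and 0.65 at 3 h, and the latter were 1.42 to 1.57 fold. At 3 h Inpp4b was at the 95.6 percentile of the genotype differences of all genes. Changes with stage were between -0.35 and -0.60 in WT and between -0.01 and -0.46 in Nr4a-TKO. The direction of the brightest probe in Nr4a-TKO depended on scaling, with 0.21 after scaling to the 75th percentile.

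Inpp5d, on chr1:89616958-89617017, was dim, with 4.91 and 4.90 in WT and Nr4a-TKO naive cells and 4.25 and 4.60 at 3 h. The changes were -0.66 in WT and -0.30 in Nr4a-TKO, and the genotypes differed at 3 h by 0.35. These values are to be read against an SD of 0.327 for a difference between repeated spots at this level. The WT change ranged from -0.21 with an offset of 50 in the background correction to -0.96 after scaling to the 75th percentile.

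Tsc1 was measured by 1 probe, A_55_P2157695 on chr2:28546610-28546669, with 10.09 and 9.94 in WT and Nr4a-TKO naive cells and 9.84 and 10.13 at 3 h. The change was -0.25 in WT against 0.20 in Nr4a-TKO, opposite in sign and each within 1.19 fold. The other Tsc1 probe, on chr2:28543949-28544008, was not well above background on any array and gives no difference. Tsc2 was the only gene of the set that was higher at 3 h in both genotypes. Its brighter probe, A_51_P345714 on chr17:24732761-24732803, gave 6.48, 6.31, 6.76 and 6.55, with changes of 0.28 and 0.24. The other, A_55_P2738972 on chr17:24736555-24736614, gave 5.07, 5.12, 5.62 and 5.45, with changes of 0.55 and 0.33, so neither passed 2-fold.

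**Figure D2:**
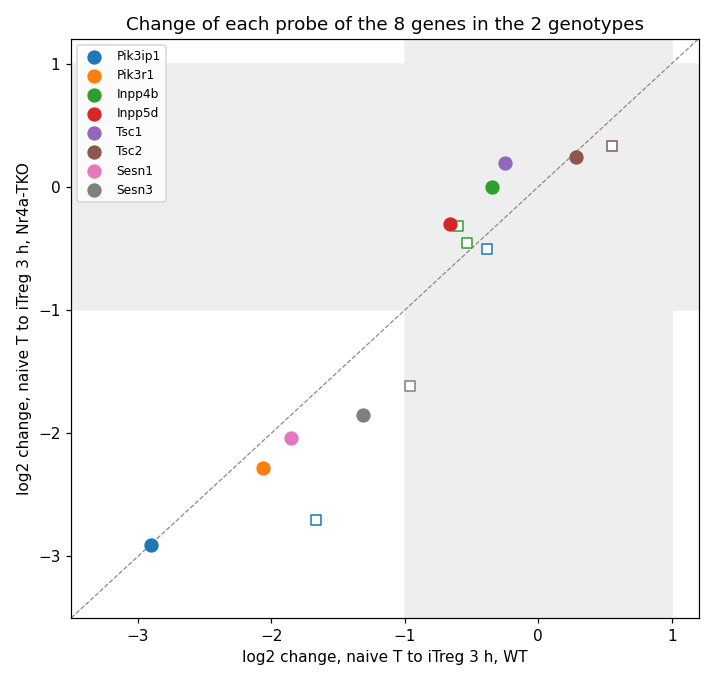
Log2 difference of iTreg at 3 h minus naive T in WT (horizontal axis) and in Nr4a-TKO (vertical axis) for the 14 probes well above background. Filled circles are the brightest probe of each gene, open squares the other probes in the colour of their gene, grey bands mark changes within 2-fold, and the dashed line marks equal change. The filled circles of Pik3ip1, Pik3r1, Sesn1 and Sesn3 lie in the lower left corner beyond 2-fold in both genotypes, and the second Pik3ip1 probe and both Sesn3 probes lie below the dashed line.

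Between genotypes, no gene of the set passed 2-fold at either stage. Among all genes, 2% passed 2-fold upwards and 1.68% downwards in Nr4a-TKO naive T, and 1.78% and 1.98% did so at 3 h. At 1.5-fold, Inpp4b was past the threshold at 3 h, as were 5.41% of all genes in that direction. The median over the 8 genes was 0.02 in naive T and 0.01 at 3 h, against -0.01 and 0.00 over all genes. In naive T the differences ran from -0.18 for Pik3r1 to 0.37 for Sesn3, and at 3 h from -0.40 for Pik3r1 to 0.65 for Inpp4b. These 2 genotype comparisons and the 2 comparisons of stages share arrays, so their values are not independent.

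**Figure D3:**
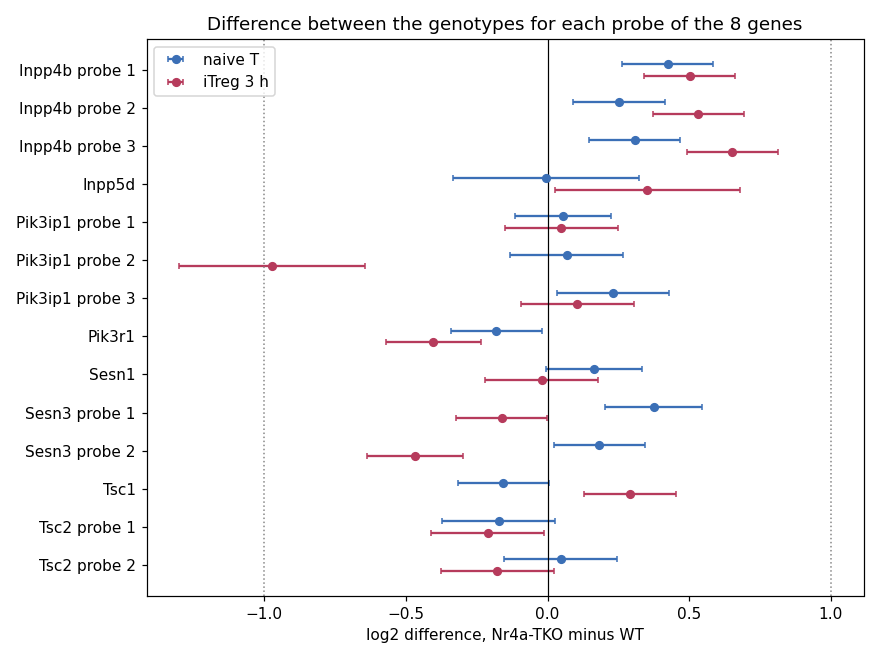
Log2 difference of Nr4a-TKO minus WT (horizontal axis) in naive T (blue) and iTreg at 3 h (red) for each probe of the 8 genes, with bars of 1 SD of a difference between repeated spots at that level. Dotted lines mark 2-fold. The 3 Inpp4b probes lie to the right of 0 at both stages, and the second Pik3ip1 probe lies near the lower dotted line at 3 h.

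The rest of the pathway was read from lists of 79 further genes, of which 76 were compared in each genotype. In WT, 11 passed 2-fold downwards (14.5%) and 4 upwards (5.3%), with a median of -0.11. The shares over all genes were 8.84% and 8.65%, with a median of -0.05. In Nr4a-TKO, 8 were lower (10.5%) and 3 higher (3.9%), with a median of -0.15. Here the shares over all genes were 8.48% and 7.95%, with a median of -0.03, so the share of lower genes was near that of all genes. The counts of lower pathway genes were 6 in WT and 3 in Nr4a-TKO with an offset of 50 in the background correction. Castor1, Prkaa2 and Ddit4l were not well above background on any array.

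Of 10 PI3K subunits 3 were lower in each genotype, against 8.84% of all genes in WT and 8.48% in Nr4a-TKO. These 3 belong to the leukocyte forms of the enzyme. Pik3r5, an adaptor of PI3Kγ, changed by -2.17 in WT cells and -1.81 in Nr4a-TKO cells. Pik3cg, the catalytic subunit of PI3Kγ, changed by -1.81 and -1.58, and Pik3cd, the catalytic subunit of PI3Kδ, by -1.49 and -1.17. Pik3r6, another adaptor of PI3Kγ, stayed within 2-fold, with -0.72 and -0.52. The 4 probes of Pik3cd ranged from -1.13 to -1.49 in WT and the 3 of Pik3r5 from -2.03 to -2.17. Of 9 other lipid phosphatases, Inpp5k was lower in both genotypes (-1.29 and -1.44, though its other probes stayed within 2-fold), Inppl1 (SHIP2) in WT (-1.02 and -0.14) and Inpp4a in Nr4a-TKO (-0.72 and -1.16).

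In the Akt arm, Foxo1 showed -1.74 in WT and -1.06 in Nr4a-TKO and Gsk3b -1.40 and -1.14. Of the mTOR complex genes, Rptor (Raptor) was represented by a probe with -1.76 in WT and -0.38 in Nr4a-TKO, but its 3 other probes were higher at 3 h in WT, by 0.59 to 1.06. The same probe differed between the naive arrays by -1.48, where its other probes gave -0.51 to 0.46. By brightest probes no other pathway gene passed 2-fold there, while scaling to the 75th percentile gave 1 higher and 1 lower. None of the 3 TSC and Rheb genes passed 2-fold. In the group of GATOR, Rag and amino acid sensing genes, Sesn2, the sestrin outside the set, was higher at 3 h by 1.61 in WT and 0.82 in Nr4a-TKO, opposite to Sesn1 and Sesn3. Lamtor2, a Ragulator subunit, changed by -1.08 and -1.63, and Flcn differed between genotypes at 3 h by -1.01, where another of its probes gave -0.64. It was the 1 pathway gene past 2-fold in that comparison, against none with an offset of 50 and 1 higher and 2 lower after scaling to the 75th percentile.

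Among the AMPK genes, Prkab2 was over 2-fold higher in both genotypes, by 1.34 in WT, and Prkag1 changed by -1.27 and -0.94. Of 8 mTORC1 outputs, Eif4ebp1 (4E-BP1), the mTORC1 substrate that restrains cap-dependent translation, was higher by 3.17 in WT and 2.76 in Nr4a-TKO. Its partner Eif4e was higher by 1.61 and 1.54 by its brightest probe, and by 1.28 and 1.06 by another. A further, dim probe gave -0.19 and -0.35 and was not well above background on the Nr4a-TKO array at 3 h. The other 6 outputs did not pass 2-fold in either genotype.

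**Figure D4:**
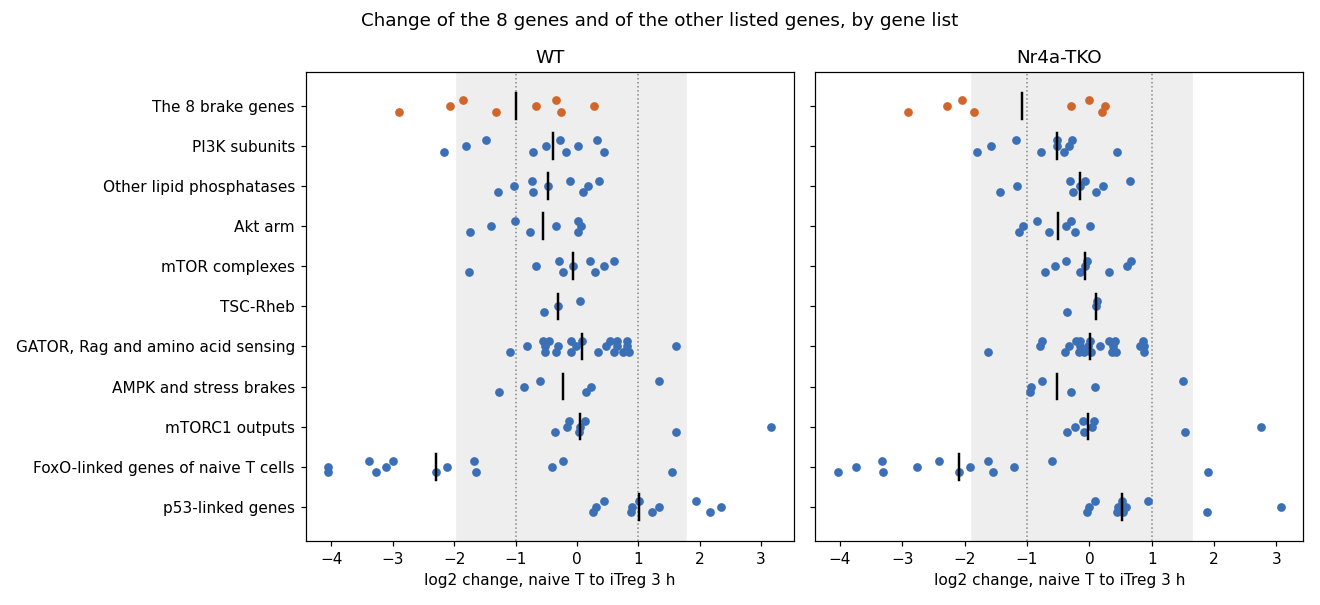
Log2 difference of iTreg at 3 h minus naive T (horizontal axis) in WT (left) and Nr4a-TKO (right) for the 8 brake genes (orange) and the genes of each list (blue), with 1 point per gene and a black bar at the median. The grey band holds the central 95% of all genes and the dotted lines mark 2-fold. The FoxO-linked genes lie furthest to the left, and the p53-linked genes mostly lie to the right of 0.

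Pik3ip1, Sesn1 and Sesn3 are known FoxO-linked genes and Sesn1 is also a known p53 target, so lists of other genes of each kind were read beside them. Of 13 FoxO-linked genes of naive T cells, 10 were more than 2-fold lower in WT and 11 in Nr4a-TKO, with medians of -2.30 and -2.08. Over all genes, 8.84% were lower past 2-fold in WT and 8.48% in Nr4a-TKO. The list was chosen from genes of naive T cells, with earlier results of these data known. S1pr1, the receptor for egress from lymph nodes, changed by -4.06 and -3.74, Klf2, which drives it, by -3.39 and -3.30, Il7r by -3.00 and -2.77, and Txnip by -4.05 and -3.33. Cdkn1b (p27) changed by -3.11 and -2.41. Bcl2l11 (Bim) was higher by 1.55 and 1.91, but another of its 4 probes, which represents it after scaling to the 75th percentile, did not pass 2-fold.

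Of 11 p53-linked genes, 6 were more than 2-fold higher in WT and 2 in Nr4a-TKO, with medians of 1.01 and 0.52, and none was more than 2-fold lower. Over all genes, 8.65% were higher and 8.84% lower past 2-fold in WT, and 7.95% and 8.48% in Nr4a-TKO. Cdkn1a (p21) was at least 2.16 higher in WT and 3.08 in Nr4a-TKO on the log2 scale. Phlda3 was higher by 2.34 in WT and by at least 1.89 in Nr4a-TKO. The other 2 Cdkn1a probes gave 1.27 and at least 0.59 in WT and 1.04 and 0.39 in Nr4a-TKO. All these Cdkn1a and Phlda3 probes were not well above background on the naive arrays. Nor was that of Eda2r, which was at least 1.34 higher in WT, while Zmat3 passed 2-fold narrowly there, by 1.01. Bax, which promotes apoptosis, was higher by 1.94 and 0.94. With an offset of 50 the counts were 2 and 1. Sesn1 and Sesn3 thus had the direction of most genes of the first list and not that of the second, which is a comparison of directions and no test of either factor.

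The genes whose pattern over the 4 arrays was most like that of Pik3ip1, by the root mean square distance of centred log2 signals, were Cnp at 0.079, Abcg1 at 0.081 and H60b at 0.087. Cnp encodes a nucleotide phosphodiesterase, Abcg1 a cholesterol exporter and H60b a ligand of NKG2D, and their changes in WT were -2.74, -3.06 and -2.77. Those most like Tsc2, the gene with the highest change, were Wdr38 at 0.009, Olfr574 at 0.015 and Gnpat at 0.017. With 4 arrays such likeness holds little information, and nothing is drawn from it.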

How the data were processed

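RNA of the 4 groups was hybridised to single-colour Agilent arrays, 1 per group. For each array the authors deposited the output of Agilent Feature Extraction 11.5.1.1, with spot intensity, local background, processed intensity and flags. The authors also deposited a log2 value table. It matched processed intensities scaled to the 75th percentile per array, although the methods name RMA. Mean spot intensities were corrected with normexp (offset 0, limma 3.58.1 in R 4.3.3), quantile-normalized and put on the log2 scale. Control spots and 115 to 160 outlier spots per array were left out. Dim probes below the lowest well-above-background signal of their array were raised to it, and other dim probes kept their value. Pairs in which both arrays were dim gave no difference. Symbols were updated through RefSeq (GRCm38.p6). Every gene and probe of the set is described. Other genes are named from the listed genes that passed 2-fold in a comparison, some of which are not reported here. The 3 genes most like the members with the largest rise and fall are also named. The members and lists were chosen with earlier results of these data known. Precision is limited by the number of arrays, and the SD between repeated spots came from 300 probes with at least 5 spots. The counting was tested on simulated data. No exon annotation of mm9 was used here.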

Additional observations from a re-analysis of the deposited data

Results flagged for a closer look

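The change of Tsc1 from naive T to iTreg at 3 h had opposite signs in the genotypes, with -0.25 under the WT label and 0.20 under the Nr4a-TKO label. The difference of 0.448 on the log2 scale was not tested, since each group had 1 array. It lay at the 87.5 percentile of the same difference over all genes, and that of Sesn3 at the 8.6 percentile. After scaling to the 75th percentile the changes of Tsc1 were -0.06 and 0.40, and with the deposited values -0.04 and 0.42.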

How the results depend on the processing

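The 4 genes past 2-fold in each genotype and the medians over the set were recomputed under each alternative. An offset of 50 in the background correction moved the median change to -0.80 in WT and -0.86 in Nr4a-TKO, and a threshold of 1.5-fold put 1 gene, Inpp4b, above it in Nr4a-TKO at 3 h. Otherwise 71 of 72 counts stayed within 1.5 times and 38 of 40 medians within the SD of a difference between repeated spots. Of the values of single genes and probes 40 moved by more and 288 did not, and of the counts over the other lists 13 and 35. The totals for the set include alternatives that could not move it. Changing the filter on dim probes left its values as they were, because each gene's brightest probe was well above background on every array. The deposited values also nearly repeat the percentile scaling. These totals therefore overstate the number of separate checks. No value past 2-fold changed sign, and of the 14 probes 13 or 14 kept their sign in each comparison under the 5 scalings. No paired analysis was possible because each group had 1 array. Dim probes limit Inpp5d and the second Pik3ip1 probe.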
